A study of Mus musculus with 64 samples.

Results

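The genes described here make, store and break down triglyceride, or desaturate, elongate and synthesise the fatty acids that go into it. They are a list of 34 genes chosen by name for these roles, with earlier results of these data known, so their share of changed genes is a description of the list. Each was found in exactly 1 row of the deposited count table, which holds 48795 gene rows, and all 34 passed the filter on low counts that left 16417 genes for testing. The RNA came from biventricular heart tissue of male C57BL/6 mice with a cardiomyocyte-specific knockout of E4BP4 (CEK) and of their littermate controls (CON). Hearts were taken at 8 zeitgeber times (ZT), every 3 h from ZT0 to ZT21. Each genotype and time has 4 libraries that the labels number as biological replicates, so 32 hearts stand for each genotype. The labels give neither the age of the mice nor the promoter that removed the gene, and the control genotype is stated only as littermate. The tissue is whole ventricle, so its RNA also comes from cells in which the gene was not targeted.

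Triglyceride is built by adding fatty acids to glycerol phosphate, one after another. Glycerol-phosphate acyltransferases (Gpam), lysophosphatidate acyltransferases (Agpat genes), lipins (Lpin genes) and diacylglycerol acyltransferases (Dgat genes) act in that order. The product buds into lipid droplets that are shaped by Fitm proteins and seipin (Bscl2) and coated by perilipins, and the lipases Pnpla2, Lipe and Mgll release the fatty acids again. In heart muscle this small, fast-turning pool buffers fatty acids before they reach the mitochondria. E4BP4 itself, the product of Nfil3, is a repressor of transcription that recognises D-box motifs and whose own level follows the time of day.

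Depth and the state of the libraries set the frame. Counts on genes ran from 17.7 to 45.6 M (median 27.7 M) per CEK library and from 7.71 to 39.7 M (median 25.8 M) per CON library, with M for mega in the SI sense. Nfil3 was measured at 0.506 CPM (CPM being read counts scaled to the effective library size) in the lowest CEK heart, 1.73 in the median and 4.75 in the highest, against 4.90, 16.2 and 31.8 CPM in CON hearts. Its log2 fold change was -3.00 ± 0.067 (SE), with an edgeR quasi-likelihood adjusted p of 3.35e-39, and no CEK heart reached the level of any CON heart. Counts per gene do not tell cardiomyocyte RNA from that of other cells. On the first principal component of all genes, which held 27.6% of the variance, 3 libraries stood apart, namely replicate 4 of CEK at ZT0, replicate 1 of the CEK group at ZT18, and, among CON hearts, replicate 3 of ZT18. Results that rest on them are given with and without them. Of these libraries, CON at ZT18 replicate 3 was the shallowest of all, at 7.71 M. CEK at ZT18 replicate 1 had the lowest mitochondrial share of counts on genes, 10.5%, against a median of 25.5%. CEK at ZT0 replicate 4 had 6.16% of reads on no feature, against a median of 3.56% and a highest of 12.6%. Whether these traits bear on gene levels was not tested. In 12 of the 34 genes, exons overlap a gene on the opposite strand, by 0.205% (Agpat3) to 16% (Abhd5) of their length. Without the strand setting, which the sources used here do not give, reads from both strands cannot be told apart.

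The levels of the 34 genes spanned a 744-fold range per kilobase of exon in CON hearts. On this scale of CPM per kilobase, Dgat2, which adds the last fatty acid to triglyceride, was highest at 138.6 in CEK hearts and 152.2 in CON hearts. Pnpla2, the adipose triglyceride lipase that starts lipolysis, came next at 114.4 in CEK hearts and 121.6 in CON hearts. Fitm1 stood at 54.7 in CEK hearts and 62.4 in CON hearts, and Fitm2 at 51.7 in CEK hearts and 56.9 in CON hearts. At the other end were Elovl6, which lengthens palmitate to stearate, at 0.199 in CEK hearts and 0.205 in CON hearts, and Acaca, the cytosolic acetyl-CoA carboxylase, at 0.528 in CEK hearts and 0.562 in CON hearts. Summed by role, synthesis genes reached 241.2 in CEK hearts and 258.5 in CON hearts, storage genes 214.1 and lipolysis genes 210.1 in CEK hearts, and storage genes 224.0 and lipolysis genes 226.3 in CON hearts. Desaturation and elongation genes summed to 33.9 in CEK hearts and 32.9 in CON hearts, and fatty acid synthesis and activation genes to 12.5 in CEK hearts and 12.2 in CON hearts. Transcripts of triglyceride assembly, storage and release were thus far more abundant per length than those of making new fatty acids, in both genotypes.

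The main question was which of these genes differed between the genotypes over the whole day. Of the 34 genes, 9 passed an adjusted p of 0.05 for the difference averaged over the 8 times: 5 rose (Scd4, Elovl1, Fads1, Dgat1 and Plin2) and 4 fell (Fitm2, Dgat2, Lpin1 and Agpat3). That is 26.5% of the genes, where 12% of all 16417 genes tested passed, 6.69% higher and 5.3% lower. The called changes were small, with the largest at 0.45 on the log2 scale. By role, 3 of 8 desaturation and elongation genes rose and none fell, while 1 of 9 synthesis genes rose and 3 fell. Storage genes had 1 riser and 1 faller among 7, and none of 6 lipolysis genes and none of 4 fatty acid synthesis and activation genes passed. The median log2 fold change of the 34 genes was -0.015, against -0.00072 over all genes tested, and the median size regardless of sign was 0.10, against 0.071. In RNA of whole ventricle, fewer cells of a type and less RNA per cell cannot be told apart.

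**Figure D1:**
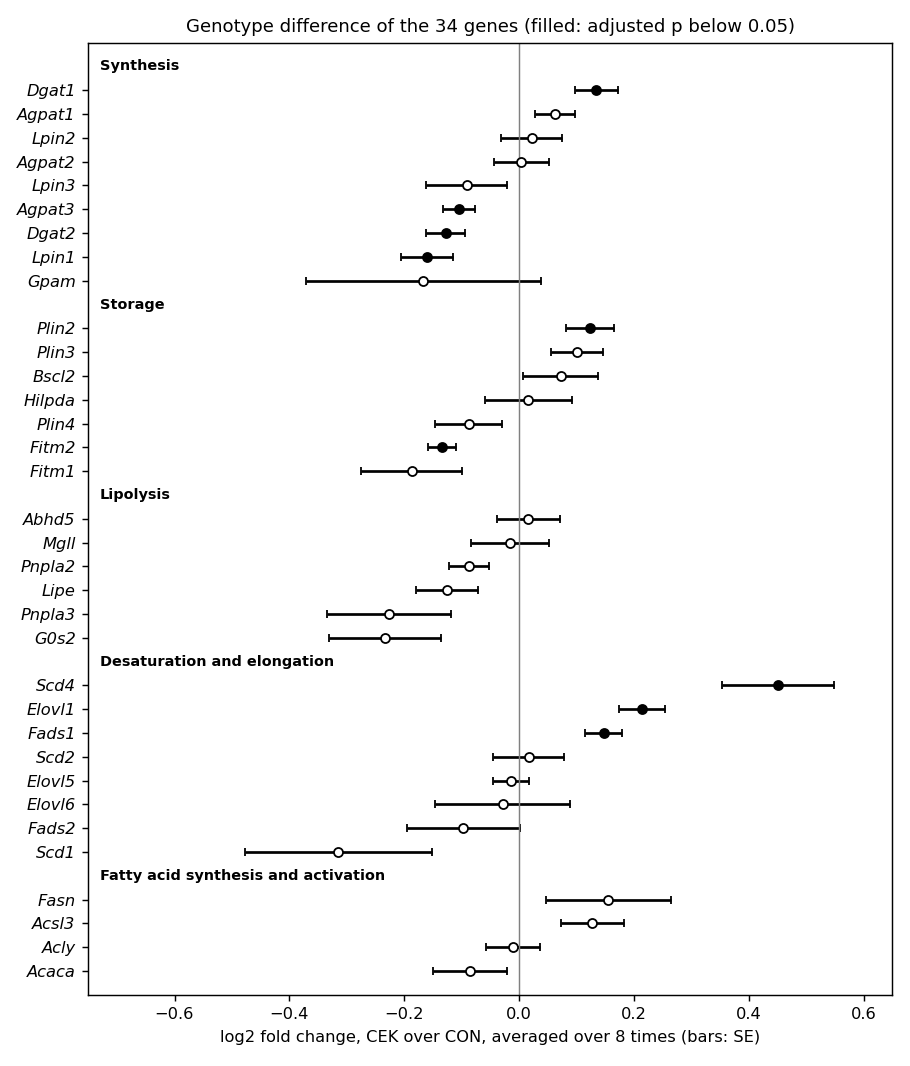
Log2 fold change of each of the 34 genes, CEK over CON, averaged over 8 times (horizontal axis), grouped by role, with bars of 1 SE; filled points passed an adjusted p of 0.05. The 9 filled points lie between -0.16 (Lpin1) and 0.45 (Scd4), with 3 of the 5 positive ones among the desaturation and elongation genes.

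Among the desaturases, Scd4 changed most. It belongs to the stearoyl-CoA desaturases, which put the first double bond into saturated fatty acids, and in the mouse it is the isoform known from heart. Scd4 (chr19:44333092-44346743, GRCm38, plus strand) had 5.76 CPM in the lowest CEK heart, 11.9 in the median and 30.7 in the highest, against 3.90, 8.77 and 25.5 CPM in CON hearts. The ranges overlapped widely, and 24 of 32 CEK hearts lay above the CON median. Scd4 had a log2 fold change of 0.45 ± 0.097 (SE), a rise of 36.7%, with an edgeR adjusted p of 0.000662. Scd4 was higher in CEK at all 8 times, with log2 fold changes from 0.095 ± 0.27 at ZT3 to 0.84 ± 0.28 at ZT21. The other desaturases of this family did not pass: Scd1 had a log2 fold change of -0.31 ± 0.16 and Scd2 of 0.017 ± 0.062. Scd1, Scd2 and Scd4 are closely related neighbours on chromosome 19, so how reads were divided between them is uncertain.

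Elovl1 lengthens saturated very-long-chain fatty acids that end up largely in sphingolipids. Its level (chr4:118428093-118432953, plus strand) was 14.6 CPM in the lowest CEK heart, 17.96 in the median and 24.2 in the highest, against 12.7, 15.9 and 19.6 CPM in CON hearts. Although the ranges overlapped, 30 of 32 CEK hearts lay above the CON median. The log2 fold change of Elovl1 was 0.21 ± 0.040, or 15.97% more, with an edgeR adjusted p of 8.44e-05, and it was positive at all 8 times. Fads1, a desaturase of polyunsaturated fatty acids that yields arachidonate (chr19:10182888-10196877, plus strand), had 20.4, 26.6 and 32.8 CPM as lowest, median and highest CEK values, against 19.9, 24.1 and 28.4 CPM in CON hearts. Here too 30 of 32 CEK hearts were above the CON median in spite of overlapping ranges. Fads1 rose by 10.8% (log2 fold change 0.15 ± 0.032, edgeR adjusted p 0.000757) and was higher at 7 of 8 times, all but ZT12. Its partner desaturase Fads2, which acts earlier in the same route, had a log2 fold change of -0.097 ± 0.099 and did not pass. Elovl5 (-0.014 ± 0.032) and Elovl6 (-0.029 ± 0.12) did not pass either.

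The synthesis genes that passed went in both directions. Dgat1 and Dgat2 catalyse the same last step of triglyceride synthesis with unrelated proteins. Dgat1 (chr15:76502015-76511953, minus strand) had 17.98, 22.3 and 31.3 CPM as lowest, median and highest values in CEK hearts, against 16.9, 20.5 and 25.1 CPM in CON hearts. Dgat2 (chr7:99153658-99182719, minus strand) had 318, 411 and 595 CPM in CEK hearts, against 299.7, 459 and 610.1 CPM in CON hearts. Both pairs of ranges overlapped, with 26 of 32 CEK hearts above the CON median for Dgat1 and 21 of 32 below it for Dgat2. By log2 fold change, Dgat1 was at 0.13 ± 0.037 (edgeR adjusted p 0.00990) and Dgat2 at -0.13 ± 0.034 (edgeR adjusted p 0.00599). Dgat2 was lower in CEK at all 8 times and Dgat1 higher at 7 of 8. The time at which Dgat1 was not higher was ZT9, at -0.0065 on the log2 scale.

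Lpin1, the main phosphatidate phosphatase of striated muscle and also a nuclear coregulator (chr12:16535669-16610966, minus strand), had 142.7, 167 and 248.5 CPM as lowest, median and highest values in CEK hearts, against 148.5, 189 and 256 CPM in CON hearts. Of the CEK hearts, 25 of 32 lay below the CON median, within overlapping ranges. Lpin1 fell (percent change -10.55, log2 fold change -0.16 ± 0.046, edgeR adjusted p 0.0117), and was lower at 7 of 8 times, the exception being ZT0, at 0.00030 on the log2 scale. Agpat3, a lysophosphatidate acyltransferase (chr10:78269178-78352489, minus strand), had 144.7, 175 and 219 CPM in CEK hearts, against 156.8, 185 and 236 CPM in CON hearts. These ranges overlapped as well, with 20 of 32 CEK hearts below the CON median. Its log2 fold change was -0.10 ± 0.027 (edgeR adjusted p 0.00531), and it was negative at all 8 times. Among the other synthesis genes, Agpat1 (0.062 ± 0.036), Agpat2 (0.0040 ± 0.048), Lpin2 (0.022 ± 0.054) and Lpin3 (-0.091 ± 0.070) did not pass. Nor did Gpam, which commits fatty acids to glycerolipids, at -0.17 ± 0.20.

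Of the storage genes, Fitm2 had the smallest adjusted p. Fitm2 sits in the endoplasmic reticulum and is needed for droplets to bud from it. Fitm2 (chr2:163466379-163472629, minus strand) had 181 CPM in the lowest CEK heart, 203 in the median and 235 in the highest, against 174.6, 230.2 and 264 CPM in CON hearts. Only 3 of 32 CEK hearts lay above the CON median, although the ranges overlapped. Fitm2 fell (percent change -8.87), with a log2 fold change of -0.13 ± 0.025 and an edgeR adjusted p of 7.10e-05. All 8 times were negative, from -0.26 ± 0.070 at ZT0 to -0.049 ± 0.070 at ZT12. The spread of Fitm2 within groups was the smallest of the 34 genes, at a SD of 0.089 on the log2 scale, where the median of the 34 was 0.225. The gene 2310001K24Rik on the opposite strand overlaps 5.72% of the exon length of Fitm2, so how reads in that stretch were counted is uncertain.

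Plin2 coats the surface of lipid droplets in most cells outside fat. Plin2 (chr4:86648386-86670060, minus strand) had 47.1, 62.6 and 91.8 CPM as lowest, median and highest values in CEK hearts, against 40.1, 57.7 and 75.8 CPM in CON hearts, with overlapping ranges. The log2 fold change of Plin2 was 0.12 ± 0.042 (edgeR adjusted p 0.0410) and positive at all 8 times. This call was the least secure of the 9: it was lost in 24 of 64 fits that left out 1 library each, with the highest adjusted p, 0.0733, without CEK at ZT18 replicate 1. It was also lost without the 3 libraries that stood apart (log2 fold change 0.11, adjusted p 0.0749). Plin3 (0.10 ± 0.045), Plin4 (-0.088 ± 0.059), Hilpda (0.016 ± 0.076) and Bscl2 (0.072 ± 0.065) did not pass.

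**Figure D2:**
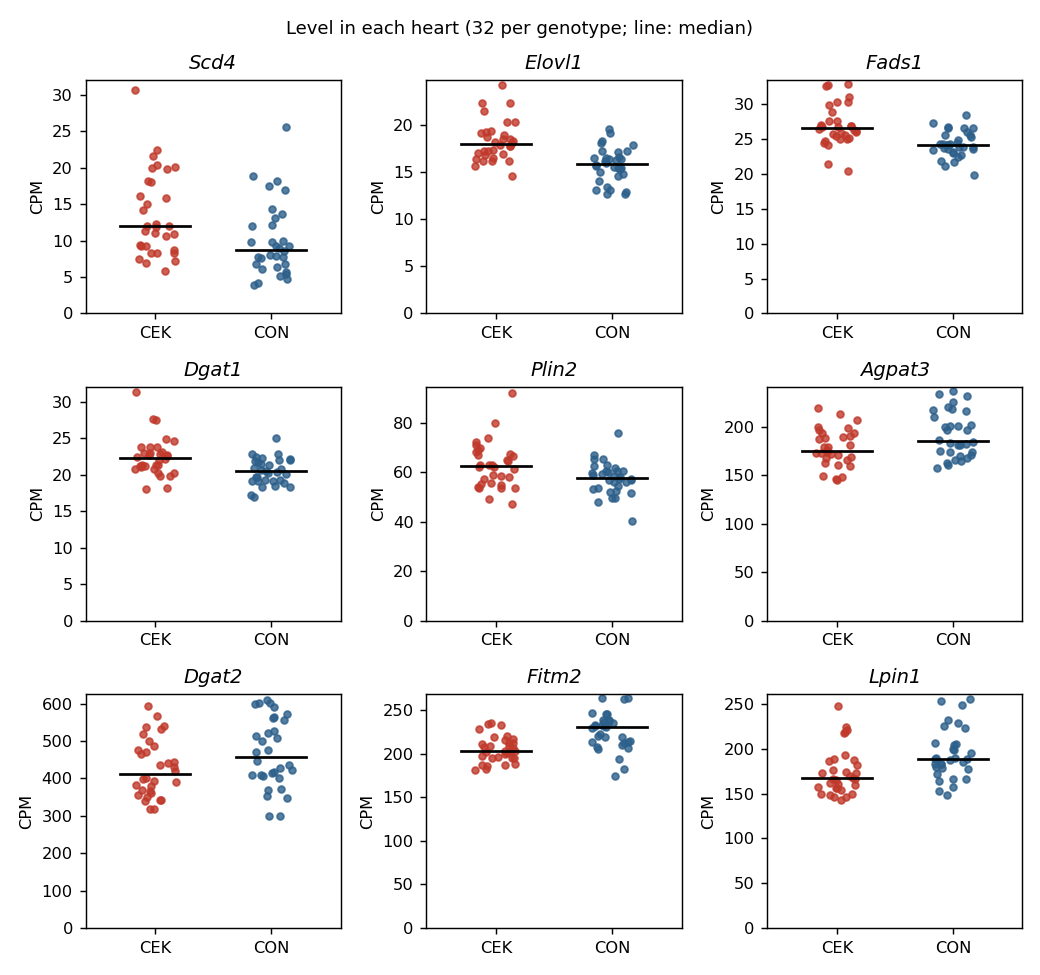
Level in CPM (vertical axis, from 0) of the 9 genes that passed the averaged comparison, 1 point per heart, 32 hearts per genotype, with a line at the median. CEK and CON ranges overlap for every gene, and the shift is clearest for Fitm2 (medians 203 CPM in CEK and 230.2 CPM in CON), Elovl1 (17.96 CPM in CEK and 15.9 CPM in CON) and Fads1 (26.6 CPM in CEK and 24.1 CPM in CON).

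The 6 called genes that kept 1 direction at all 8 times were Scd4, Elovl1 and Plin2, higher, and Fitm2, Agpat3 and Dgat2, lower. Acsl3 (log2 fold change 0.13 ± 0.055) and Lipe (-0.13 ± 0.054) also kept 1 direction at all 8 times but were not called. Each of the 6 was called on the mean of these same 8 differences, so a shared sign is partly built in. The reference table of promoters has entries for 5 of the 6 called genes. Their bases from 250 before to 10 after the annotated start site are printed here because the knockout is of a DNA-binding repressor. Whether E4BP4 acts on them directly was not tested. The letters are from RefSeq, build GRCm38.p6, read 5′ to 3′ on the strand of the gene. Scd4 is at chr19:44333076-44333335 on the plus strand, Elovl1 (the first of its 2 listed starts) at chr4:118427843-118428102 on the plus strand, and Plin2 at chr4:86670050-86670309 on the minus strand. Fitm2 is at chr2:163472620-163472879 and Agpat3 at chr10:78351691-78351950, both on the minus strand. Capitals mark CACGTG, the E-box bound by clock proteins such as CLOCK and BMAL1.
Scd4: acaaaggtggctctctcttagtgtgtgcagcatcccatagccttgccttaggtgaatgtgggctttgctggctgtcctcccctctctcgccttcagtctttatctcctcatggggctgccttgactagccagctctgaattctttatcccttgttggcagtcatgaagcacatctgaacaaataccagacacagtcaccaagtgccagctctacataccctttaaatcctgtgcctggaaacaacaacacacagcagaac
Elovl1: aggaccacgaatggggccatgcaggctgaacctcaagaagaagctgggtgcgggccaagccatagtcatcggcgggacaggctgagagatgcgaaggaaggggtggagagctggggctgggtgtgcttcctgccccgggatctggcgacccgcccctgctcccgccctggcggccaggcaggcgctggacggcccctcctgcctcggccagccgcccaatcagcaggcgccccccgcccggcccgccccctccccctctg
Plin2: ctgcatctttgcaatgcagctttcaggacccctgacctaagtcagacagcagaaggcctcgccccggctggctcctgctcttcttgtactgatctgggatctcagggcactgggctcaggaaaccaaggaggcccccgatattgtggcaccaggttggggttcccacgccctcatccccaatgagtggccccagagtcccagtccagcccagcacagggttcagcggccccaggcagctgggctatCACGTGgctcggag
Fitm2: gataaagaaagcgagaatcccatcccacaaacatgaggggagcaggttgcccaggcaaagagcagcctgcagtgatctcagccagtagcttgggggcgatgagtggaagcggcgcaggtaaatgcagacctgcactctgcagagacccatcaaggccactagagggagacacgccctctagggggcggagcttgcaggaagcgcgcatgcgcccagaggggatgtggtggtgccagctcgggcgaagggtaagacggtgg
Agpat3: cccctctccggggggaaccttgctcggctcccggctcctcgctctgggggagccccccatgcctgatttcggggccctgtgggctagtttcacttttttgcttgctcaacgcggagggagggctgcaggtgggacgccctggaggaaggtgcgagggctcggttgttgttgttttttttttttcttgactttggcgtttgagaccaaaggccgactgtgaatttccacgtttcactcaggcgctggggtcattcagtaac

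Both strands of all 40 listed start sites of 29 of the 34 genes were searched, from 250 bases before to 50 after each start. The D-box letters searched were TTATGTAA and TTACGTAA, and they were in 0 of the 40 windows, against 1.06% of all 32851 windows of the table. CACGTG was in 6 of the 40 windows, against 7.15% of all windows. In Plin2 its first base lies at -4 from the start site, and in Lpin2 at -9. The other matches begin at -44 in Mgll, -155 in Lipe, -161 in Elovl5 and 23 bases into the transcript in Lpin3. A match is only a run of letters, and no match says only that these letters are not in these windows.

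In the 25 genes that did not pass, log2 fold changes ran from -0.31 (Scd1) to 0.16 (Fasn), with 10 above and 15 below 0. With each library left out in turn, that of Scd1 ran from -0.37 to -0.10. Among the 25 genes, the calls of 2 lipolysis genes and 1 storage gene depended on the 3 libraries that stood apart. G0s2, the inhibitor that binds Pnpla2, had a log2 fold change of -0.23 ± 0.098 (adjusted p 0.118) with all 64 libraries and of -0.30 ± 0.087 (adjusted p 0.0126) without those 3. Fitm1, the muscle-enriched relative of Fitm2, had -0.19 ± 0.088 (adjusted p 0.179) with all libraries and -0.23 ± 0.066 (adjusted p 0.0146) without the 3. Pnpla2 had -0.087 ± 0.036 (adjusted p 0.105) with all libraries and -0.11 ± 0.036 (adjusted p 0.0415) without the 3. Without these libraries 11 of the 34 genes passed, 4 higher and 7 lower, where 13% of all genes did. All p are from edgeR's quasi-likelihood test.

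Markers of other cells also differed between the genotypes. The macrophage score, the mean log2 CPM of 12 markers, ran from 4.01 to 5.09 in CEK and from 3.74 to 4.84 in CON hearts. Its adjusted p was 8.00e-05 in a two-sided permutation test within times. In the averaged comparison 9 of its 12 markers rose, where 6.69% of all genes tested rose and 5.3% fell. The cardiomyocyte score of 12 markers averaged 12.07 ± 0.116 in CEK hearts and 12.15 ± 0.105 in CON hearts (SD, n = 32 each), with 1 marker higher and 3 lower (adjusted p 0.00124). No marker of these lists was at 0 in any heart. Their part in the differences of the 34 genes was not tested. Atrial markers, with 6 of 10 lower, gave a score of 5.77 ± 0.876 in CEK hearts and 6.19 ± 1.26 in CON hearts (adjusted p 0.153), and with that score in the fit 8 of the 34 genes passed. Adipocyte markers, with none of 12 called, gave 1.03 ± 0.838 in CEK hearts and 1.22 ± 0.880 in CON hearts (adjusted p 0.346), and with that score in the fit the same 9 genes passed. The share of all genes that passed with the atrial or the adipocyte score in the fit is not given here.

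At single times, 4 CEK hearts were set against 4 CON hearts. Of the 272 pairs of a gene and a time, 2 passed, which is 0.735%, where 0.379% of all gene and time pairs did. Fitm2 at ZT0 had 203.2, 207.1, 211.3 and 206.5 CPM in the CEK hearts, against 263.7, 237, 263.4 and 229.9 CPM in the CON hearts. Every CEK heart was below every CON heart. The log2 fold change of Fitm2 was -0.26 ± 0.070 (edgeR adjusted p 0.0402), in a comparison where 0.384% of all genes were called lower. Fads1 at ZT3 had 26.2, 32.8, 31.0 and 30.2 CPM in the CEK hearts, against 21.7, 21.1, 26.6 and 25.2 CPM in the CON hearts. The lowest CEK heart lay just under the highest CON heart, and all others were apart. The log2 fold change of Fads1 was 0.35 ± 0.090 (edgeR adjusted p 0.0497), where 0.481% of all genes were called higher. Neither call held in every fit that left out 1 library. Fads1 lost it in 49 of the 64 fits (highest adjusted p 0.311, without CEK at ZT3 replicate 2). Fitm2 lost it without CEK at ZT0 replicates 1, 2 or 4 or CON at ZT0 replicates 1 or 3 (highest adjusted p 0.186, without the last). Without the 3 libraries that stood apart, 1 of them a CEK heart of ZT0, Fitm2 lost its call at a log2 fold change of -0.27 (edgeR adjusted p 0.0533) and Fads1 kept its own. The next smallest adjusted p were those of Scd1 at ZT9 and Elovl1 at ZT0, which did not pass. Scd1 at ZT9 had a log2 fold change of -1.85 ± 0.47 (edgeR adjusted p 0.0604), with 12.02 to 17.8 CPM in the CEK hearts, against 13.95 to 175.5 CPM in the CON hearts, where 1 heart lay far above the other 3. Elovl1 at ZT0 had 17.8, 18.7, 17.2 and 24.2 CPM in the CEK hearts, against 13.1, 17.15, 12.7 and 16.4 CPM in the CON hearts, with a log2 fold change of 0.39 ± 0.11 (edgeR adjusted p 0.0718).

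Many of these genes followed the time of day in both genotypes. A cosine with a 24 h period passed for 13 of the 34 genes in CEK hearts (38.2%, against 15.6% of all genes tested) and for 11 in CON hearts (32.4%, against 14.6%). Of the 34 genes, 10 passed in both genotypes, as did 1550 of all 16417 genes tested. The 10 were Pnpla3, Scd4, G0s2, Lpin3, Dgat2, Acsl3, Plin4, Agpat3, Plin3 and Fitm2. Lpin1, Plin2 and Fads1 passed in CEK hearts alone and Lipe in CON hearts alone, which does not show that their rhythms differed. The median amplitude on the log2 scale, from the fitted mean to the peak, was 0.14 in CEK hearts and 0.13 in CON hearts for the 34 genes, against 0.12 in CEK and 0.12 in CON over all genes tested. The test of the difference in rhythm itself passed for none of the 34 genes in edgeR or in DESeq2. It passed for 0.00609% of all genes, which is Nfil3 alone, and 2 of the 34 genes had an unadjusted p under 0.05, Fads1 (0.0239) and Fitm2 (0.0305).

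Pnpla3, a patatin-like lipase relative of Pnpla2 that responds to feeding in liver, had the largest swing. Its mean lay between 0.975 ± 0.285 CPM at ZT9 and 4.62 ± 0.200 CPM at ZT21 in CEK hearts, and between 1.62 ± 0.382 CPM at ZT12 and 4.72 ± 1.35 CPM at ZT18 in CON hearts (SD, n = 4 hearts a time). The amplitude of Pnpla3 was 1.00 with a peak at ZT21.2 in CEK hearts (edgeR adjusted p 3.19e-10), and 0.79 with a peak at ZT22.0 in CON hearts (1.82e-07). From fitted trough to peak this was 4.02-fold in CEK hearts and 2.99-fold in CON hearts. Scd4 peaked on the other side of the day. Its mean lay between 7.42 ± 1.37 CPM at ZT18 and 22.3 ± 6.26 CPM at ZT6 in CEK hearts, and between 5.96 ± 1.44 CPM at ZT18 and 16.1 ± 7.60 CPM at ZT6 in CON hearts. Scd4 had an amplitude of 0.62 with a peak at ZT6.24 in CEK hearts (7.59e-06), and of 0.77 with a peak at ZT5.74 in CON hearts (8.97e-08).

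G0s2, which restrains Pnpla2, was high late in the cycle. Its mean ranged from 30.7 ± 7.59 CPM at ZT3 to 61.2 ± 17.7 CPM at ZT0 in CEK hearts, and from 33.9 ± 13.97 CPM at ZT3 to 64.8 ± 6.23 CPM at ZT15 in CON hearts. The amplitude of G0s2 was 0.46 with a peak at ZT19.6 in CEK hearts (edgeR adjusted p 0.00355), and 0.40 with a peak at ZT18.5 in CON hearts (0.0141). The CEK mean at ZT0 includes replicate 4, which stood apart on the first principal component, at 84.0 CPM. Both calls of G0s2 held with each library left out. The highest edgeR adjusted p were 0.0187 in CEK (without CEK ZT18 replicate 1) and 0.0370 in CON (without CON ZT18 replicate 3). Dgat2 climbed through the day to a maximum at ZT15, where the hearts held 541.8, 519, 595 and 567 CPM in CEK, against 574, 601, 599.8 and 610.1 CPM in CON. At ZT3, its lowest time, they held 340.0, 356, 318 and 343 CPM in CEK, against 402, 299.7, 369 and 300.5 CPM in CON. No heart of either genotype at ZT3 reached the level of any heart at ZT15. The amplitude of Dgat2 was 0.31 in CEK hearts (edgeR adjusted p 4.48e-10) and 0.37 in CON hearts (8.00e-13), with peaks at ZT14.3 in CEK and ZT14.4 in CON.

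The remaining large rhythms had smaller levels or smaller swings. Lpin3, a phosphatidate phosphatase like Lpin1, peaked at ZT6.57 with an amplitude of 0.30 in CEK hearts (edgeR adjusted p 0.00315), and at ZT7.59 with 0.38 in CON hearts (0.000170). Acsl3, an acyl-CoA synthetase that sits on growing lipid droplets, peaked at ZT0.633 with 0.25 in CEK hearts (0.00595), and at ZT23.7 with 0.29 in CON hearts (0.00101). Plin4, the perilipin of muscle and fat, reached 273 ± 36.6 CPM at ZT12 in CEK hearts and 275 ± 32.4 CPM at ZT12 in CON hearts, from a low of 157 ± 21.4 CPM in CEK hearts and 165 ± 24.3 CPM in CON hearts at ZT6. Its amplitude was 0.28 in CEK hearts (0.00402) and 0.27 in CON hearts (0.00528). Lipe, the hormone-sensitive lipase that follows Pnpla2 in lipolysis, had an amplitude of 0.18 in CEK hearts (0.0872) and 0.22 in CON hearts (0.0306), peaking at ZT7.96 in CEK and ZT6.35 in CON. The CON call of Lipe was lost without CON at ZT6 replicate 3, ZT18 replicate 2, ZT3 replicate 2 or ZT9 replicate 1, with adjusted p up to 0.0581. An antisense gene, 4732471J01Rik, overlaps 15.6% of its exon length, so its counts are uncertain.

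**Figure D3:**
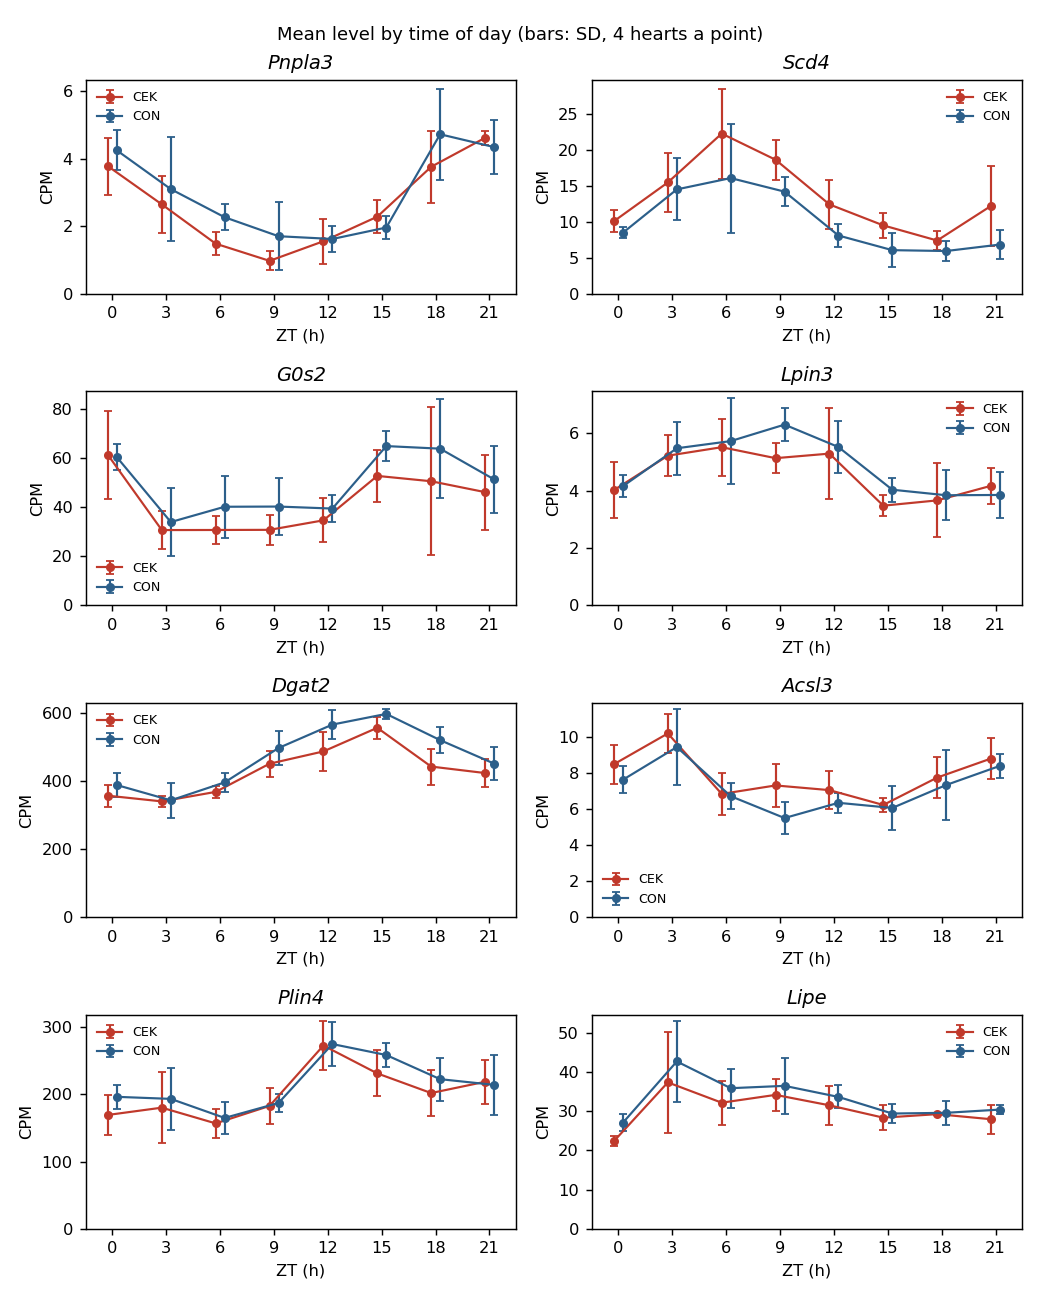
Mean level in CPM (vertical axis, from 0) against ZT in hours for the 8 genes with the largest amplitude among those that passed in CON hearts; points are means of 4 hearts and bars are 1 SD, CEK and CON drawn slightly apart in time. Pnpla3 means are lowest at ZT9 in CEK and ZT12 in CON hearts, Scd4 means are highest at ZT6 and Dgat2 means at ZT15 in both genotypes.

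The peak times of the 10 genes that passed in both genotypes lay within 2 h of each other for 9 of them. The smallest distance was 0.04 h, in Dgat2, and the largest 2.63 h, in Fitm2, which peaked at ZT21.0 in CEK hearts and ZT23.7 in CON hearts. The next largest was 1.06 h. The amplitude was larger in CEK hearts for 4 of the 10 and larger in CON hearts for 6. Peaks fell in the first 12 h of the cycle for 6 of 13 genes in CEK hearts and 4 of 11 in CON hearts. Agpat3 peaked at ZT3.44 with an amplitude of 0.16 in CEK hearts (edgeR adjusted p 4.28e-05), and at ZT3.30 with 0.21 in CON hearts (3.80e-08). Plin3, a perilipin found on new droplets, peaked at ZT20.1 with 0.22 in CEK hearts (0.000939), and at ZT19.1 with 0.19 in CON hearts (0.00488). Fitm2 had 0.099 in CEK hearts (0.00648) and 0.14 in CON hearts (3.35e-05). Of the genes that passed in CEK hearts alone, Lpin1 had an amplitude of 0.20 in CEK hearts (0.00299) and 0.10 in CON hearts (0.272), and Fads1 had 0.13 in CEK hearts (0.00551) and 0.0070 in CON hearts (0.988). Plin2 had 0.15 in CEK hearts (0.0284) and 0.068 in CON hearts (0.550).

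Adipocytes express many of these genes too, and adipocyte markers varied between the hearts. Adipoq, the adiponectin gene that marks adipocytes, had 0.157, 0.914 and 5.53 CPM as lowest, median and highest values in CEK hearts, against 0.184, 1.16 and 13.5 CPM in CON hearts. Lep, Adrb3 and Ucp1 were at 0 in 2, 4 and 24 of the 64 hearts. Within groups, 4 of the 34 genes had a positive slope on the adipocyte score and none a negative one, where 0.457% of all genes had a positive and 0.0122% a negative slope. They were Scd1 at 0.60 ± 0.082 log2 units per unit of score (edgeR adjusted p 1.70e-06), Elovl6 at 0.34 ± 0.069 (0.00237), Fasn, the fatty acid synthase, at 0.32 ± 0.063 (0.00144), and Pnpla3 at 0.27 ± 0.068 (0.0480). None of these 4 was among the 9 genes that differed between genotypes, and the score holds none of the 34 genes. With the markers Plin1, Cidec, Cidea and Fabp4 left out of the score, 4 of the 34 genes again had a positive slope. A slope is an association between hearts and does not say which cells the RNA came from.

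A single heart carried much of this. CON at ZT9 replicate 2 had the highest adipocyte score, 4.05. Scd1 was 175.5 CPM in it, against 13.95, 15.3 and 23.2 CPM in the other CON hearts of that time and 15.9, 12.02, 17.4 and 17.8 CPM in the CEK hearts. Fasn was 138.7 CPM in that heart, against 22.2, 23.4 and 44.9 CPM in its CON companions and 34.1, 33.7, 38.1 and 38.5 CPM in the CEK hearts. Without it, 1 of the 34 genes, Scd1, kept a called slope (adjusted p 0.000393), while Elovl6 had an adjusted p of 0.214, Fasn of 0.177 and Pnpla3 of 0.311. Without it, too, the averaged genotype difference of Fasn was called, at 0.27 on the log2 scale with an adjusted p of 0.0197. With all libraries it was 0.16 ± 0.11, with an adjusted p of 0.423. For Scd1, the averaged genotype difference had its highest adjusted p of the 64 fits without this heart, 0.707, against 0.237 with all libraries. Pnpla3, at an adjusted p of 0.0480 with all libraries, lost its slope in 44 of 64 fits that left out 1 library each. The p values here are from edgeR's quasi-likelihood test.

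**Figure D4:**
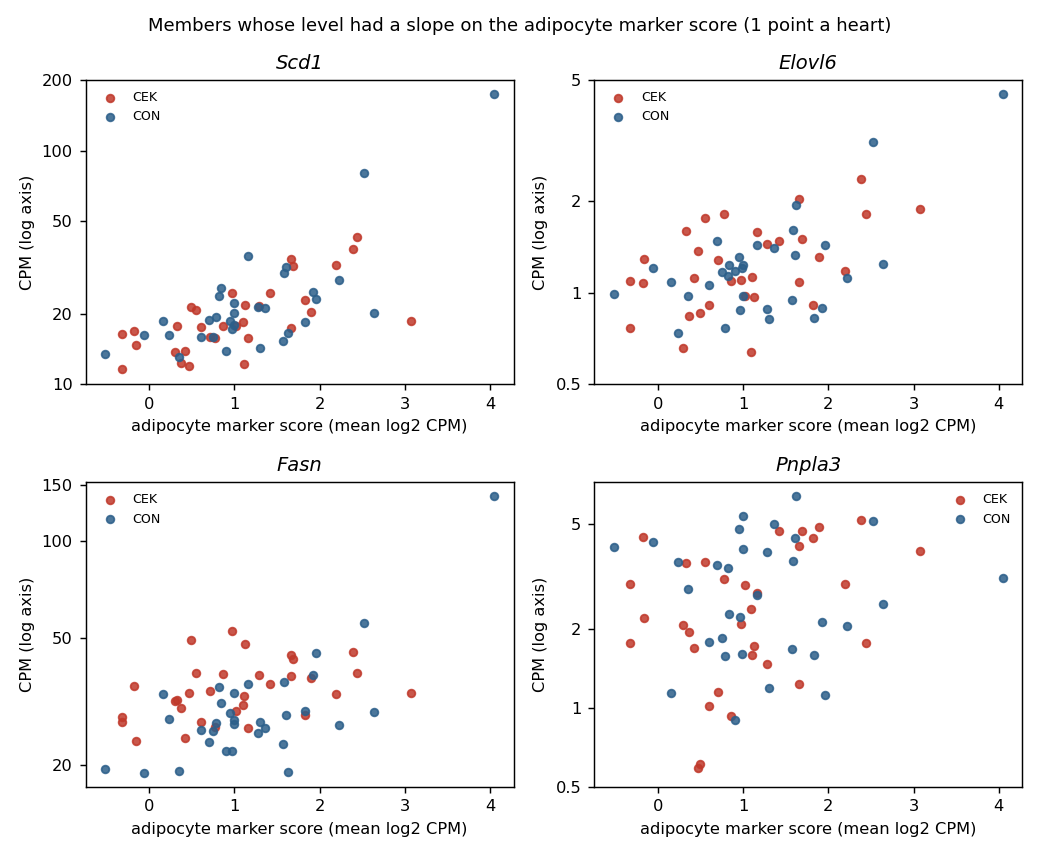
Level in CPM (vertical log axis) against the adipocyte marker score (horizontal axis, mean log2 CPM of 12 markers), 1 point per heart, for the 4 genes with a positive slope. The CON heart at a score of 4.05 has the highest Scd1, Fasn and Elovl6 of all hearts, at 175.5, 138.7 and 4.49 CPM, while its Pnpla3 of 3.13 CPM lies within the range of the other CON hearts.

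Some of the genes varied far more between hearts than between genotypes. Gpam had the widest spread within groups, with a SD of 0.97 on the log2 scale, where 10 of the 34 genes exceeded 0.3. In the 3 libraries that stood apart Gpam was 5.41 CPM (CEK at ZT0 replicate 4), 6.96 CPM (CEK at ZT18 replicate 1) and 11.95 CPM (CON at ZT18 replicate 3), against 34.2 to 189 CPM in the other 61 hearts. Mgll, which cleaves the last fatty acid from glycerol, went the other way, with 353, 327 and 283 CPM in those libraries, against 127 to 220.3 CPM in the others. Fitm1 had 105.5, 92.6 and 137.1 CPM, against 33.01 to 74.5 CPM, and G0s2 had 84.0, 95.7 and 84.2 CPM, against 22.4 to 77.3 CPM. For all 4 genes the 3 libraries lay outside the range of the other 61. The first principal component is computed from all genes, these 4 included. With that score in the fit, an alternative chosen after seeing the data, 13 of the 34 genes passed the averaged comparison, 6 higher and 7 lower, where 21.1% of all genes did. Fitm1 then had a log2 fold change of -0.25 ± 0.030 (adjusted p 4.08e-09), G0s2 of -0.30 ± 0.058 (7.19e-05) and Acsl3 of 0.16 ± 0.041 (0.00284), all by edgeR.

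**Figure D5:**
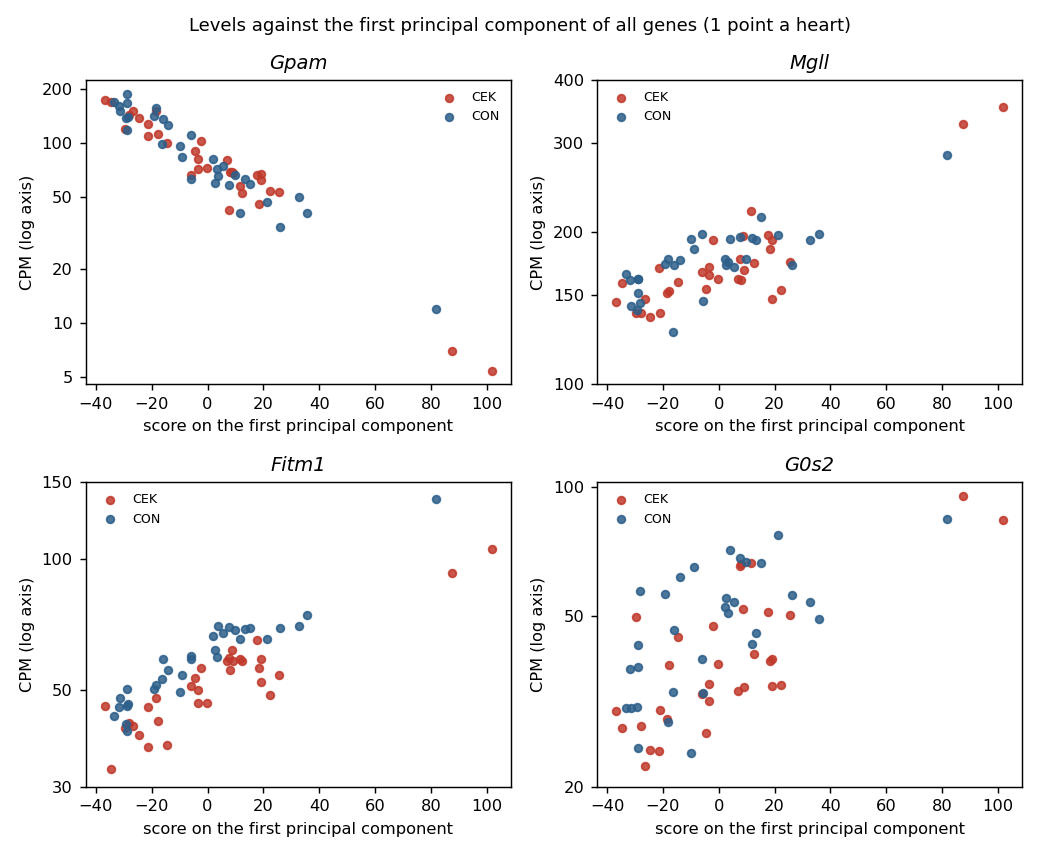
Level in CPM (vertical log axis) of Gpam, Mgll, Fitm1 and G0s2 against the score of each heart on the first principal component of all genes (horizontal axis), 1 point per heart, 32 hearts per genotype. The 3 libraries at scores of 81.9 to 101.9 have the lowest Gpam and the highest Mgll, Fitm1 and G0s2.

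Genes of the same pathways outside the 34 gave a further reading, from a list of 61 that includes uptake, activation and cofactor supply. Of these, 53 were tested, and 3 rose and 9 fell in the averaged comparison, or 22.6%, where 12% of all genes tested passed, 6.69% higher and 5.3% lower. Ces1d, a carboxylesterase that hydrolyses triglyceride, rose by 0.73 ± 0.031 on the log2 scale (edgeR adjusted p 1.47e-25), although near-identical carboxylesterase genes may share its reads. Acsl6, a long-chain acyl-CoA synthetase, fell by 0.50 ± 0.054 (4.51e-10). Acss1, which makes acetyl-CoA from acetate in mitochondria, had a log2 fold change of -0.17 ± 0.036 (0.000561), and Mlycd, which removes malonyl-CoA, of -0.17 ± 0.042 (0.00363). The 53 genes had a median log2 fold change of -0.029.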

How the data were processed

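The deposited table holds raw counts per gene for 64 libraries, as its whole numbers and unequal totals show. The authors, per the submitters' processing notes, used bcl2fastq 2.18.0.12, STAR 2.6.1d, HTSeq 0.11.1 and GRCm38; annotation release, strand setting and read filters were not given in the sources used here. Ensembl IDs were matched without version, and 48349 of 48795 got a symbol. Library sizes leave out the 5 summary rows, whose median shares were 3.56% for no feature, 3.2% for ambiguous and 33.3% for multiple locations. Mitochondrial genes took a median of 25.5% of counts on genes.

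Fits used R 4.3.3 and edgeR 4.0.16 over all genes that passed filterByExpr (16 groups, counts of at least 10, totals of at least 15), with TMM scaling, the quasi-likelihood F-test, Benjamini-Hochberg adjustment over all 16417 genes of a comparison and a threshold of 0.05. The genotype difference came from 16 group means (48 residual degrees of freedom), and the rhythm from a cosine and sine of 24 h for each genotype (58 residual degrees of freedom). The slope on the adipocyte score, the mean log2 CPM (prior count 2) of 12 markers, was added to the group means. Marker scores were compared with 1e+05 permutations of genotype within times. A SE is the log2 fold change divided by the root of F. CPM per kilobase divides by the length of all exons in GENCODE M21. The tests were checked on simulated data.

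Members and lists were chosen when earlier results of these data were known. Full values go to every gene past the threshold between genotypes, each called pair of gene and time, genes with a changed rhythm and the 8 largest CON amplitudes, and of the wider pathway list to at most 4 genes a comparison with the smallest p. Some values were chosen after they were seen. They are those of Scd1 at ZT9 and with a library left out, and of Elovl1 at ZT0. They are also those of the genes whose call depends on 1 or 3 libraries, and of the 4 genes drawn against the first principal component. Alternatives were DESeq2 1.42.0, RLE scaling, no or a stricter filter (minimum count 50), the replicate number as a block, the submitters' sample number, marker scores as covariates, other forms of time, fewer libraries and each library left out in turn. Fits with a library left out reused the dispersion trend of all libraries. The first principal component as a covariate was added after the data were seen. Among 96 pairs of libraries within groups, the lowest chi-square per gene was 4.63, so none is a copy of another. Nothing in the labels beyond the word biological says how replicates were obtained, so p-values measure the spread between these samples.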

Additional observations from a re-analysis of the deposited data

Results flagged for a closer look

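Gpam in CEK hearts at ZT18 was 6.96 CPM in replicate 1, against 66.6, 72.5 and 72.0 CPM in replicates 2, 3 and 4. On the log2 scale, the gap between that heart and the nearest other was 0.963 of the range of the 4 values, more than Dixon's critical value for a group of 4. It was 1 of 100 groups of 4 examined (the called pairs of gene and time, the 4 genes with a slope, Gpam and the adipocyte score), where chance flags about 1 in 20. The heart is among the 3 libraries that stand apart on the first principal component, and the cause was not tested.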

How the results depend on the processing

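The count of 9 genes in the averaged comparison was 7 to 13 under the other settings and 8 to 11 with each library left out, and no called gene changed sign. Agpat3 (adjusted p 0.0571) and Plin2 (0.0772) were not called without the low-count filter, nor was Plin2 with the atrial score (0.0991). Fitm1 was called without CEK ZT0 replicate 4, Pnpla2 and Lipe without CEK ZT3 replicate 3, and G0s2 without CEK ZT18 replicate 1. The 2 calls at single times were 1 with RLE scaling, 1 with the replicate block, 1 with the adipocyte score, 1 with the atrial score, 0 without the filter, 0 with only the 8 libraries of the time and 6 with the first principal component; with each library left out they were 0 to 3. The rhythm counts were 10 to 16 in CEK and 11 to 13 in CON over settings, and 12 to 14 in CEK and 10 to 12 in CON with libraries left out. The rhythm of Fasn in CON, not called with all libraries, gained a call in 10 of 64 fits. Its highest edgeR adjusted p was 0.651, without CON ZT9 replicate 2. Over the 64 fits its amplitude ran from 0.12 to 0.41, against 0.36 with all libraries. Plin2 in CEK lost its rhythm call without CEK ZT3 replicate 2 or ZT12 replicates 1 or 2. A changed rhythm stayed at 0 in all of these. Time as 8 levels gives no amplitude per gene. The slope count of 4 was 3 to 5, and 1 to 4 with libraries left out (1 without CON ZT9 replicate 2). Whether the replicate numbers pair the samples was not settled. Over all groups, deviations from group means had a mean correlation of 0.0188 between libraries of the same number, against -0.00474 for other numbers. Of the CEK and CON pairs of the same number and time, 20 of 32 had a correlation over 0.1 (median 0.152, lowest -0.431). Same-time pairs of other numbers were not compared. The replicate block gave 9 genes averaged, 13 and 11 rhythmic in CEK and CON, 0 with a changed rhythm and 3 slopes. The share of all genes called also moves with the setting, as from 12% to 21.1% averaged with the first principal component. For most settings that share is not given here, so these counts are not a result about the listed genes alone. At 4 hearts a time, the fits see small differences poorly. The causes of these changes were not tested.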

Other observations

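Rhythms were also present in the wider list of 53 tested pathway genes, of which 16 (30.2%, against 15.6% of all genes tested) passed in CEK hearts and 14 (26.4%, against 14.6%) in CON hearts (edgeR, adjusted p of 0.05). Mid1ip1, which activates acetyl-CoA carboxylase, had an amplitude of 0.43 on the log2 scale with a peak at ZT12.9 in CEK hearts (adjusted p 1.99e-06), and of 0.57 with a peak at ZT13.6 in CON hearts (1.46e-09). Ces1d had 0.21 with a peak at ZT15.9 in CEK hearts (1.10e-06), and 0.30 with a peak at ZT17.0 in CON hearts (4.62e-11). Mlxipl, which encodes the carbohydrate-responsive factor ChREBP, had 0.22 with a peak at ZT18.8 in CEK hearts (2.28e-05), and 0.19 with a peak at ZT19.3 in CON hearts (0.000391). Fads3 had 0.13 with a peak at ZT12.9 in CEK hearts (0.00350), and 0.17 with a peak at ZT13.4 in CON hearts (8.40e-05). None of the 53 passed the test of a changed rhythm.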
